A study of Mus musculus with 20 samples.

Results

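The genes described here encode the somatic and germ cell forms of enzymes and transporters at the same steps of glycolysis, read in mouse testis before and after heat shock. The 9 genes are Slc2a1, Slc2a3, Hk1, Hk2, Pgk1, Pgk2, Ldha, Ldhc and Gapdhs, of 18193 genes read by a probe set of their own. They were chosen by name, and every probe set that the chip annotation gives to 1 of them alone was used, which gave 18 of 34945 such probe sets. A further Hk1 probe set, 1436822_x_at, is annotated to several genes and was left out. All 18 probe sets passed the filter on low values, so no member was lost. Slc2a1, Pgk1, Ldha and Hk2 are called the somatic members and Pgk2, Ldhc and Gapdhs the germ cell members, and Slc2a3 and Hk1 stand apart from both groups. Between these groups, only Pgk1 with Pgk2 and Ldha with Ldhc are forms of the same step.

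Glycolysis splits glucose into pyruvate, and lactate dehydrogenase turns pyruvate into lactate and back. Somatic cells use forms of these enzymes that are found in most tissues. During meiosis the X chromosome is silenced in spermatocytes, and male germ cells express their own forms of several enzymes, which serve the sperm tail. Pgk1, an X-linked phosphoglycerate kinase, has an autosomal retrogene, Pgk2, that is expressed in spermatocytes and spermatids. Ldhc, next to Ldha on chromosome 7, encodes the lactate dehydrogenase of the germ line, and Gapdhs the glyceraldehyde-3-phosphate dehydrogenase of spermatids and sperm. Sertoli cells, the somatic cells that nurse germ cells, take up glucose through GLUT1 (Slc2a1), pass lactate on to germ cells, and share with them the general hexokinase Hk1. GLUT3 (Slc2a3) is a high-affinity glucose transporter known from neurons, spermatocytes and later germ cells. Hk2 is the hexokinase of muscle and fat that many cells induce under stress or low oxygen.

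Whole testes of 8-week-old AKR/N and C57BL/6 mice, which are inbred strains, were measured on the Affymetrix Mouse Genome 430 2.0 array, where a gene is read by 1 or more sets of short probes. Within a strain, testes were taken 8, 10, 12 or 24 h after a heat shock (43 °C, 15 min), and from unheated controls. Whether the scrotum or the whole body was heated is not stated. The labels name no genotype other than the strain, and the controls carry no time, so heat and time of sampling cannot be told apart. This gave 10 groups of 2 arrays, and all 20 arrays were used. Whether both arrays of a group are separate animals is not stated, so a p-value reflects only how far these samples spread, and that spread may be technical. Array medians lay between 24.9 and 34.9, replicate arrays correlated across probe sets with r of 0.965 to 0.983, and the 3'/5' signal ratio of actin ran from 1.87 to 3.57. The highest median and the highest actin ratio were both of C57BL/6 12 h replicate 2, whose group had the lowest r. Transcripts of pachytene spermatocytes, spermatids, Sertoli cells and Leydig cells were measured on every array, and no marker of these lists was at 0.

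Values are deposited signals in array intensity units, and changes are differences of mean log2(signal + 16), with the standard error (SE) of a limma fit to all 20 arrays. This scale understates the change of dim probe sets. A probe set is called when its Benjamini-Hochberg adjusted p over 28000 probe sets is under 0.05. Signals are not compared between probe sets or genes, since each probe set binds with its own strength.

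The 9 genes split after heat shock into a group that rose by 24 h (Pgk1 and, in C57BL/6, Slc2a1 and Hk2), a glucose transporter that fell (Slc2a3) and germ cell forms with smaller changes. Ldha and Hk1 lie outside these groups. In AKR/N Slc2a1 was called on only 1 of its 3 probe sets and Hk2 was not called. At 24 h in AKR/N, 4 of 18 member probe sets rose, 4 fell and 10 did not pass, where 10.6% of all probe sets were called higher and 7.6% lower. At 24 h in C57BL/6, 10 rose, 5 fell and 3 did not pass, where 17.9% of all probe sets were called higher and 13.1% lower. Without AKR/N 24 h replicate 2, 3 of the 8 AKR/N calls were left, and without any 1 array at least 11 of the 15 C57BL/6 calls. These shares lie above the background in both strains, but the members were picked with earlier results known, and probe sets of 1 gene share its RNA.

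Calls were fewer at earlier times. At 8 h no member was called in either strain by limma, where 0.107% of all probe sets were called higher and 0.0143% lower in AKR/N, and 0.0893% of all probe sets were called higher and 0% lower in C57BL/6. At an unadjusted p under 0.05, 4 member probe sets passed at 8 h in AKR/N and 2 in C57BL/6. The share of all probe sets at that threshold was not taken, so these counts show no excess. In AKR/N at 10 h 4 rose and none fell, where 2.67% of all probe sets were called higher and 1.14% lower. In C57BL/6 at 10 h 2 rose and 4 fell, where 4.05% of all probe sets were called higher and 3.15% lower. Most of these 10 h calls were lost without any 1 array of the comparison, where fewer of all probe sets were called too. All 4 that fell in C57BL/6 at 10 h read Slc2a3, and 2 of the 4 that rose in AKR/N did. In AKR/N at 12 h 2 rose and 1 fell, where 3.14% of all probe sets were called higher and 2.1% lower. In C57BL/6 at 12 h 5 rose and 4 fell, where 7.61% of all probe sets were called higher and 7.04% lower. Without C57BL/6 control replicate 2, 4 of these 9 calls were left, and without either 12 h array 6 were. In AKR/N at 12 h, 1 of the 3 was left without 12 h replicate 1 or control replicate 2. The fall in AKR/N at 12 h, of Slc2a3 on 1427770_a_at, was −0.71 (SE 0.19, adjusted p = 0.0498) and was lost with median centring, quantile normalization, a pseudocount of 1, no filter and the replicate block (adjusted p = 0.0537 to 0.0884). Over the mean of the 4 times 2 probe sets rose in AKR/N, both of Pgk1, where 2.56% of all probe sets were called higher and 1.34% lower. Over that mean 8 rose and 4 fell in C57BL/6, where 8.45% of all probe sets were called higher and 7.46% lower. Without C57BL/6 control replicate 2, 5 of these 12 calls were left, and without C57BL/6 control replicate 1, 8 were. Because whole testes were measured, fewer cells of a type and less RNA per cell cannot be told apart in any of these values.

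**Figure D1:**
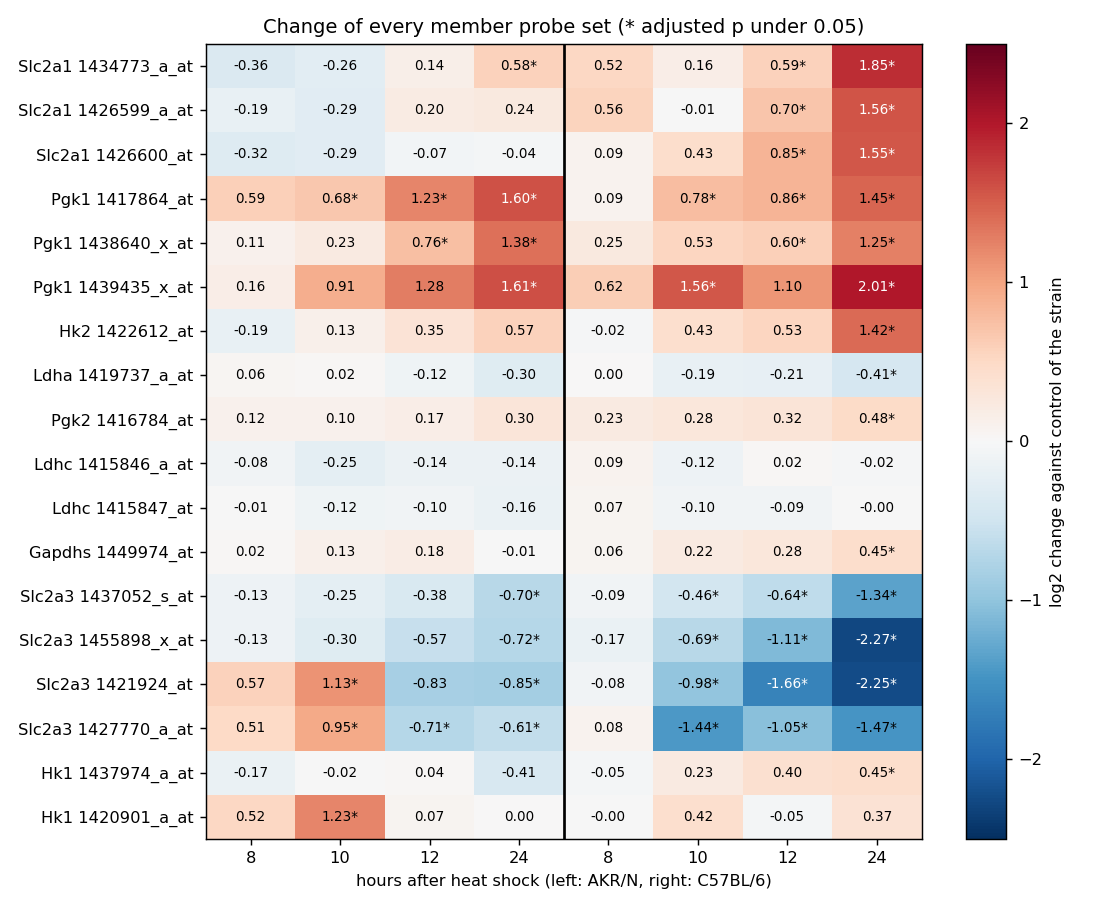
Log2 change after heat shock against controls of the same strain for the 18 member probe sets (vertical), at 8, 10, 12 and 24 h in AKR/N and C57BL/6 (horizontal), as colour, with an asterisk where the limma adjusted p is under 0.05. The 3 Pgk1 probe sets are positive at 24 h in both strains, the 4 Slc2a3 probe sets are negative there, and the 8 h columns hold no asterisk.

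Pgk1, the somatic phosphoglycerate kinase, rose in both strains. Its probe set 1417864_at read 154 and 171 in controls, 263 and 241 at 8 h, 294 and 248 at 10 h, 366 and 441 at 12 h and 562 and 488 at 24 h in AKR/N. The same probe set read 174 and 240.3 in controls, 214 and 222 at 8 h, 349 and 376 at 10 h, 393 and 373 at 12 h and 603 and 572 at 24 h in C57BL/6. Both heated arrays exceeded both controls from 8 h on in AKR/N and from 10 h on in C57BL/6. At 24 h the log2 change was 1.60 (SE 0.16, adjusted p = 0.000244) in AKR/N, a 3.03-fold rise, and 1.45 (SE 0.16, adjusted p = 2.78e-05) in C57BL/6, a 2.73-fold rise. The strains' 24 h changes of this probe set differed by 0.15 (SE 0.23, adjusted p = 0.786), which does not pass the test. Both calls held without any 1 array.

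The second Pgk1 probe set, 1438640_x_at, which carries the suffix for probes that may bind other transcripts, read 456 and 516 in heated AKR/N testes at 24 h and 187 and 166 in AKR/N controls. In C57BL/6 it read 469 and 442 at 24 h and 178 and 186 in controls. It rose in both strains, by 1.38 (SE 0.15, adjusted p = 0.000305) in AKR/N and 1.25 (SE 0.15, adjusted p = 5.9e-05) in C57BL/6. The third, 1439435_x_at, was uneven between replicates, with AKR/N controls at 182 and 78.5 and C57BL/6 controls at 83.0 and 126. Its 24 h signals of 368 and 436 in AKR/N and 462 and 463 in C57BL/6 still exceeded all controls of the strain. Its change was 1.61 (SE 0.41, adjusted p = 0.0163) in AKR/N, which was lost without AKR/N 24 h replicate 2 or AKR/N control replicate 2 (1.07 to 1.49, adjusted p = 0.119 to 0.147), and 2.01 (SE 0.41, adjusted p = 0.00212) in C57BL/6. Over the 20 arrays the 3 probe sets correlated with r of 0.78 to 0.91, a description of arrays that share their groups.

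Pgk1 was the earliest of the somatic members to be called. Probe set 1417864_at rose by 0.68 (SE 0.16, adjusted p = 0.0333) at 10 h in AKR/N and by 0.78 (SE 0.16, adjusted p = 0.0123) at 10 h in C57BL/6. Both calls at 10 h rest on 2 arrays a group: the AKR/N call was lost without any 1 of its 4 arrays (0.57 to 0.80, adjusted p = 0.0611 to 0.192) and with the arrays centred on their median (0.69, adjusted p = 0.0683). The C57BL/6 call was lost without C57BL/6 10 h replicate 1, C57BL/6 10 h replicate 2 or C57BL/6 control replicate 1 (0.56 to 0.83, adjusted p = 0.0514 to 0.126). At 12 h its change was 1.23 (SE 0.16, adjusted p = 0.00118) in AKR/N and 0.86 (SE 0.16, adjusted p = 0.00368) in C57BL/6, and both of these calls held without any 1 array. From the mean of 8, 10 and 12 h to 24 h Pgk1 rose further, by 0.76 (SE 0.13, adjusted p = 0.00156) in AKR/N, where 11.7% of all probe sets were called higher and 8.11% lower, and by 0.88 (SE 0.13, adjusted p = 0.000431) in C57BL/6, where 13.5% of all probe sets were called higher and 8.75% lower. In that comparison 3 member probe sets rose and 6 fell in AKR/N, and 6 rose and 4 fell in C57BL/6. Without AKR/N 24 h replicate 2, 2 of the 9 AKR/N calls were left, both of Pgk1, and without any 1 array 9 or more of the 10 C57BL/6 calls were.

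**Figure D2:**
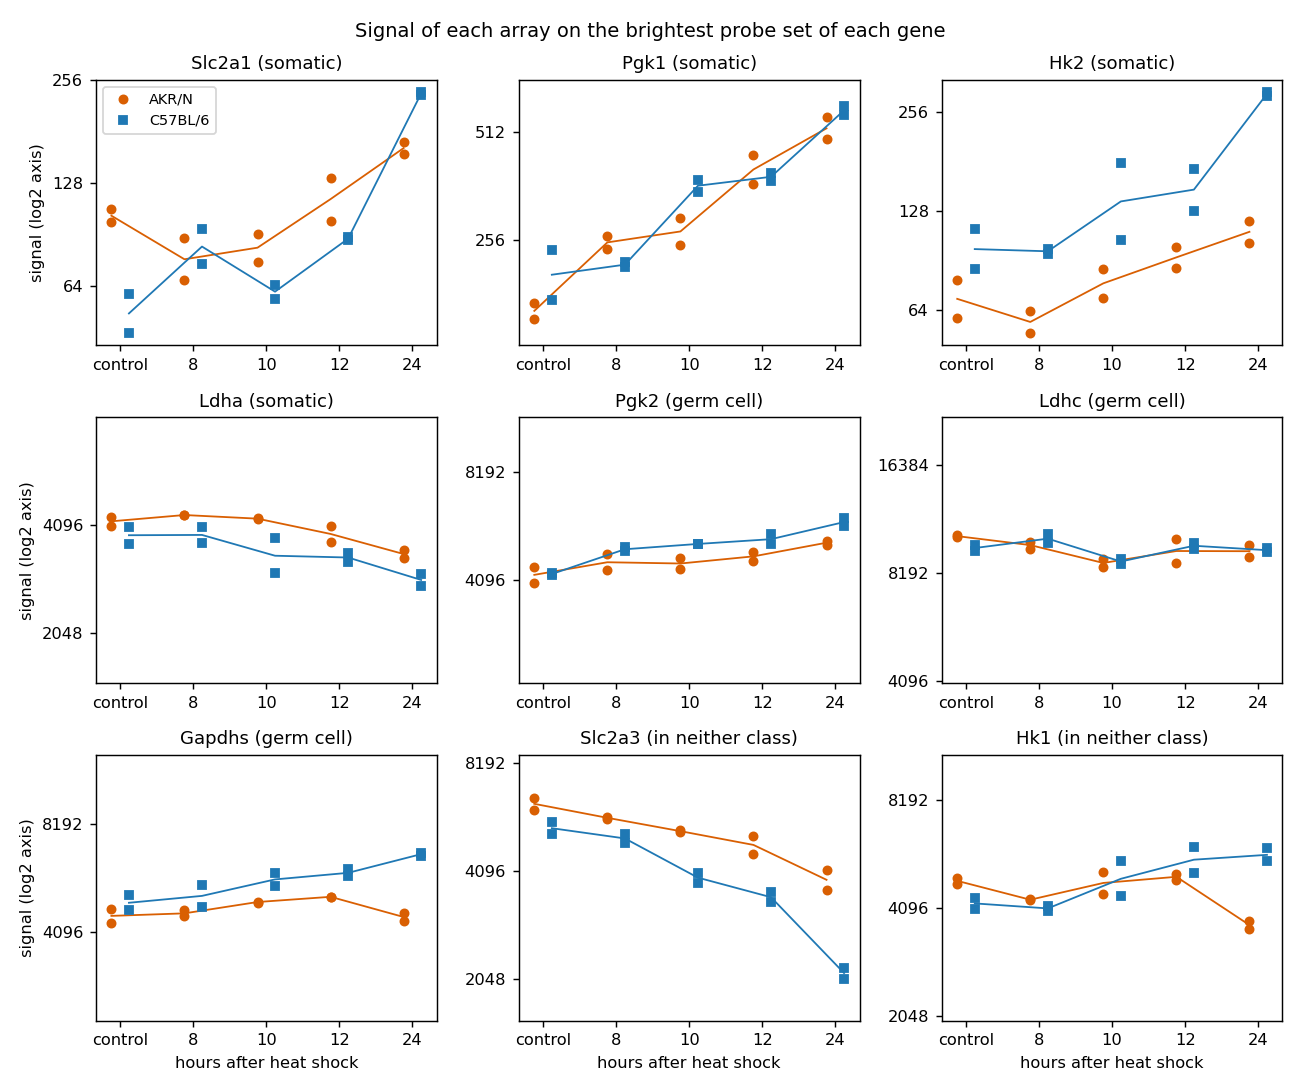
Signal of the brightest probe set of each of the 9 genes (vertical, log2 axis, array intensity units) in controls and at 8, 10, 12 and 24 h (horizontal), with points for single arrays and lines for group means of AKR/N and C57BL/6. Pgk1 climbs in both strains, the Slc2a1 and Hk2 lines are steepest in C57BL/6, and the Pgk2, Ldhc and Gapdhs points stay within a narrow band.

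Slc2a1, which encodes GLUT1, the glucose transporter of Sertoli cells and most dividing cells, rose at 24 h in C57BL/6 on all 3 of its probe sets and in AKR/N on 1. Its brightest probe set, 1434773_a_at, read 108 and 98.4 in controls, 66.6 and 88.5 at 8 h, 75.5 and 91.3 at 10 h, 133 and 99.7 at 12 h and 156 and 169 at 24 h in AKR/N. In C57BL/6 it read 60.9 and 46.7 in controls, 74.3 and 94.2 at 8 h, 58.9 and 64.8 at 10 h, 87.2 and 89.2 at 12 h and 232 and 237 at 24 h. The 24 h arrays exceeded their controls in both strains, and the C57BL/6 controls were lower than the AKR/N controls. Its 24 h change was 0.58 (SE 0.17, adjusted p = 0.0305) in AKR/N, a 1.5-fold rise, and 1.85 (SE 0.17, adjusted p = 9.38e-06) in C57BL/6, a 3.61-fold rise. The AKR/N call was lost without any 1 of its 4 arrays (0.53 to 0.64, adjusted p = 0.072 to 0.178), whereas the C57BL/6 call held without any 1 array.

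The other 2 Slc2a1 probe sets were called at 24 h in C57BL/6 and not in AKR/N, and the test of the difference is given after their values. Probe set 1426599_a_at read 60.8 and 86.4 at 24 h and 70.6 and 49.0 in controls in AKR/N, a change of 0.24 (SE 0.16, adjusted p = 0.337) that was not called. In C57BL/6 it read 134 and 116 at 24 h and 35.7 and 27.8 in controls and rose by 1.56 (SE 0.16, adjusted p = 2.08e-05). Probe set 1426600_at had overlapping arrays in AKR/N, with 51.8 and 52.1 at 24 h and 61.9 and 46.7 in controls, a change of −0.041 (SE 0.25, adjusted p = 0.931). In C57BL/6 it read 97.2 and 89.7 at 24 h and 29.5 and 14.6 in controls and rose by 1.55 (SE 0.25, adjusted p = 0.000385). Each of these C57BL/6 calls held without any 1 array.

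The difference between the strains in the 24 h change of Slc2a1 was itself tested, as AKR/N minus C57BL/6. It was −1.27 (SE 0.24, adjusted p = 0.0338) on 1434773_a_at, −1.32 (SE 0.23, adjusted p = 0.028) on 1426599_a_at and −1.59 (SE 0.35, adjusted p = 0.0543) on 1426600_at, so the first 2 passed. In this comparison 1 member probe set, of Slc2a3, was called higher and 2, both of Slc2a1, lower, where 0.457% of all probe sets were called higher and 0.318% lower. Neither Slc2a1 call is firm: the first was lost without any 1 of its 8 arrays (−1.41 to −1.12, adjusted p = 0.0635 to 0.125), and the second was lost without any 1 array other than AKR/N 24 h replicate 2 or AKR/N control replicate 2 (−1.44 to −1.11, adjusted p = 0.0649 to 0.122). With arrays centred on their median the values were −1.14, adjusted p = 0.0769 and −1.19, adjusted p = 0.0513. The unheated controls differed too, where AKR/N exceeded C57BL/6 by 0.78 (SE 0.17, adjusted p = 0.0177) on 1434773_a_at and by 0.66 (SE 0.16, adjusted p = 0.036) on 1426599_a_at. The first call was lost without AKR/N control replicate 1 or 2 or C57BL/6 control replicate 2 (0.63 to 0.83, adjusted p = 0.0503 to 0.181) and the second without AKR/N control replicate 1 or C57BL/6 control replicate 1 or 2 (0.45 to 0.78, adjusted p = 0.0735 to 0.318). With median centring these were 0.69, adjusted p = 0.0506 and 0.57, adjusted p = 0.0875. They were the only 2 member probe sets called between unheated strains, where 2.18% of all probe sets were called higher and 2.6% lower. Markers of other cells differed between the unheated strains too, and their part in the difference was not tested. AKR/N exceeded C57BL/6 on 5 of 6 measured markers of Leydig cells, with summed signals of 4036 to 4229 in AKR/N controls and 1920.4 to 2134 in C57BL/6 controls. Of 6 macrophage and leukocyte markers 1 was higher, with sums of 607 to 692 in AKR/N controls and 434 to 439 in C57BL/6 controls, and of 7 Sertoli cell markers none was called, with sums of 6053 to 6451 in AKR/N and 5379 to 5573 in C57BL/6. At 24 h the signals of all 3 probe sets were higher in every C57BL/6 array than in every AKR/N array.

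In C57BL/6 the rise of Slc2a1 was already called at 12 h, by 0.59 (SE 0.17, adjusted p = 0.0349), 0.70 (SE 0.16, adjusted p = 0.0128) and 0.85 (SE 0.25, adjusted p = 0.0353) on 1434773_a_at, 1426599_a_at and 1426600_at. The first was lost without any 1 of its 4 arrays (0.44 to 0.73, adjusted p = 0.0552 to 0.24), the second without 12 h replicate 2 or control replicate 2 (0.58 to 0.70, adjusted p = 0.0569 to 0.116) and the third without either 12 h array or control replicate 2 (0.56 to 0.98, adjusted p = 0.0525 to 0.274). With median centring 1434773_a_at changed by 0.46, adjusted p = 0.122 and 1426600_at by 0.72, adjusted p = 0.0537 at 12 h in C57BL/6. Over the mean of the 4 times in C57BL/6, all 3 calls were lost without control replicate 2, with 0.63, adjusted p = 0.0708 on 1434773_a_at. That array held the lowest C57BL/6 control signal on each probe set. At 12 h in AKR/N none of the 3 was called, with changes of 0.14, 0.20 and −0.067.

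Hk2, a hexokinase that traps glucose inside the cell as glucose 6-phosphate, rose at 24 h in C57BL/6. Its single probe set, 1422612_at, read 79.1 and 60.6 in controls, 63.7 and 54.5 at 8 h, 85.5 and 69.6 at 10 h, 85.9 and 99.7 at 12 h and 103 and 119 at 24 h in AKR/N. It read 85.0 and 113 in controls, 94.9 and 98.2 at 8 h, 179 and 104 at 10 h, 172 and 128 at 12 h and 294 and 286 at 24 h in C57BL/6. At 24 h the arrays did not overlap the controls in either strain. The change at 24 h was 0.57 (SE 0.22, adjusted p = 0.0868) in AKR/N, which was not called, and 1.42 (SE 0.22, adjusted p = 0.000284) in C57BL/6, a 2.68-fold rise that held without any 1 array. The difference of these changes, −0.85 (SE 0.31, adjusted p = 0.18), did not pass, so Hk2 is not shown to differ between the strains in its change. Over the mean of all 5 conditions Hk2 was lower in AKR/N than in C57BL/6 by 0.72 (SE 0.10, adjusted p = 9.39e-05).

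Ldha did not move with the other somatic members. This gene encodes the muscle-type subunit of lactate dehydrogenase, and its probe set 1419737_a_at was among the bright ones in testis. It read 4331 and 4083 in controls, 4379 and 4378 at 8 h, 4256 and 4299 at 10 h, 3678 and 4088 at 12 h and 3318 and 3502 at 24 h in AKR/N. In C57BL/6 it read 3644 and 4059 in controls, 4059 and 3658 at 8 h, 3771 and 3014 at 10 h, 3245 and 3424 at 12 h and 2785 and 2992 at 24 h. The 24 h arrays lay below the controls in both strains, opposite to Pgk1. The 24 h change was −0.30 (SE 0.13, adjusted p = 0.137) in AKR/N, which was not called, and −0.41 (SE 0.13, adjusted p = 0.0318) in C57BL/6, a call that was lost without any 1 of its 4 arrays (−0.49 to −0.33, adjusted p = 0.0554 to 0.193). Over the mean of all conditions Ldha was higher in AKR/N than in C57BL/6 by 0.22 (SE 0.06, adjusted p = 0.0158), a call lost with median centring (0.20, adjusted p = 0.0663).

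The germ cell members moved less than Pgk1, Slc2a1 or Hk2 in C57BL/6. Pgk2, the retrogene that replaces Pgk1 in meiotic and later germ cells, read 4034 and 4466 in controls, 4839 and 4377 at 8 h, 4396 and 4741 at 10 h, 4653 and 4909 at 12 h and 5157 and 5278 at 24 h in AKR/N on its probe set 1416784_at. It read 4237 and 4298 in controls, 5074 and 4933 at 8 h, 5179 and 5173 at 10 h, 5521 and 5159 at 12 h and 5794 and 6123 at 24 h in C57BL/6. At 24 h both heated arrays exceeded both controls in each strain. At 24 h the change was 0.30 (SE 0.12, adjusted p = 0.094) in AKR/N, which was not called, and 0.48 (SE 0.12, adjusted p = 0.0066) in C57BL/6. The C57BL/6 call was lost without C57BL/6 24 h replicate 2 (0.44, adjusted p = 0.0507) and with arrays centred on their median (0.36, adjusted p = 0.117). So Pgk2 did not fall at 24 h, and its log2 change was smaller than that of Pgk1 in both strains.

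Gapdhs, the glyceraldehyde-3-phosphate dehydrogenase bound to the fibrous sheath of the sperm tail, read 4321 and 4749 in controls, 4696 and 4515 at 8 h, 4968 and 4935 at 10 h, 5113 and 5127 at 12 h and 4618 and 4381 at 24 h in AKR/N. It read 4699 and 5168 in controls, 5522 and 4804 at 8 h, 5493 and 5967 at 10 h, 6107 and 5839 at 12 h and 6675 and 6792 at 24 h in C57BL/6. In AKR/N the 24 h arrays overlapped the controls and in C57BL/6 they exceeded them. The change at 24 h was −0.01 (SE 0.12, adjusted p = 0.966) in AKR/N and 0.45 (SE 0.12, adjusted p = 0.0118) in C57BL/6. The C57BL/6 call was lost without C57BL/6 24 h replicate 1, C57BL/6 24 h replicate 2 or C57BL/6 control replicate 1 (0.38 to 0.46, adjusted p = 0.0544 to 0.0942) and with median centring (0.33, adjusted p = 0.137). Over the mean of all conditions Gapdhs was lower in AKR/N than in C57BL/6 by 0.26 (SE 0.054, adjusted p = 0.00308).

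Ldhc, the testis lactate dehydrogenase, was called in no comparison on either of its probe sets. Probe set 1415846_a_at read 10484 and 10303 in controls, 10037 and 9594 at 8 h, 8552 and 8949 at 10 h, 8761 and 10186 at 12 h and 9066 and 9817 at 24 h in AKR/N. It read 9443 and 9820.0 in controls, 10536 and 9926 at 8 h, 8714 and 8950.0 at 10 h, 9595 and 9949 at 12 h and 9386 and 9609 at 24 h in C57BL/6. The arrays of heated and control testes overlapped at 24 h in C57BL/6 and not in AKR/N. Its 24 h change was −0.14 (SE 0.12, adjusted p = 0.448) in AKR/N and −0.02 (SE 0.12, adjusted p = 0.926) in C57BL/6, and that of 1415847_at was −0.16 (SE 0.13, adjusted p = 0.424) in AKR/N and −0.0025 (SE 0.13, adjusted p = 0.992) in C57BL/6. These probe sets stood at 75.0 to 91.9% of the highest signal of their array, and whether they neared the upper limit of the scale was not tested.

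Slc2a3, which encodes GLUT3, fell on all 4 of its probe sets at 24 h in both strains. The brightest, 1437052_s_at, read 6548 and 6038 in controls, 5786 and 5710.4 at 8 h, 5242 and 5311 at 10 h, 4552 and 5125 at 12 h and 4117 and 3621 at 24 h in AKR/N. In C57BL/6 it read 5166 and 5597 in controls, 5175 and 4899 at 8 h, 3788 and 4045 at 10 h, 3563 and 3346 at 12 h and 2197 and 2049 at 24 h. All heated arrays at 24 h lay below all controls. The 24 h change was −0.70 (SE 0.12, adjusted p = 0.00256) in AKR/N and −1.34 (SE 0.12, adjusted p = 9.38e-06) in C57BL/6, and both calls held without any 1 array. Probe set 1455898_x_at read 4057 and 3890.5 in controls, 3761 and 3481 at 8 h, 2934 and 3538 at 10 h, 2467 and 2879 at 12 h and 2713 and 2125 at 24 h in AKR/N. It read 3306 and 3666 in controls, 2993 and 3186 at 8 h, 2125 and 2181 at 10 h, 1784 and 1446 at 12 h and 713 and 709.6 at 24 h in C57BL/6. Its change at 24 h was −0.72 (SE 0.16, adjusted p = 0.00735) in AKR/N, a call lost without AKR/N 24 h replicate 2 (−0.55, adjusted p = 0.103), and −2.27 (SE 0.16, adjusted p = 3.02e-06) in C57BL/6. The difference of the 24 h changes of this probe set, AKR/N minus C57BL/6, was 1.54 (SE 0.22, adjusted p = 0.0132), lost without any 1 array other than AKR/N 24 h replicate 2, AKR/N control replicate 2 or C57BL/6 24 h replicate 2 (1.37 to 1.62, adjusted p = 0.0629 to 0.0895), and on 1437052_s_at it was 0.63 (SE 0.17, adjusted p = 0.099).

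The 2 dim Slc2a3 probe sets gave another course in AKR/N. Probe set 1421924_at read 165 and 142 in controls, 242 and 230.5 at 8 h, 336 and 374 at 10 h, 76.9 and 81.2 at 12 h and 106 and 55.5 at 24 h in AKR/N. In C57BL/6 it read 144 and 177 in controls, 170.2 and 132 at 8 h, 64.4 and 82.4 at 10 h, 44.3 and 35.1 at 12 h and 11.9 and 33.3 at 24 h. In AKR/N the 10 h arrays were the highest, while in C57BL/6 the 10 h arrays lay below the controls. Probe set 1427770_a_at followed the same order, with 141 and 157 at 10 h and 68.3 and 70.7 in controls in AKR/N, and 17.2 and 11.4 at 10 h and 56.6 and 76.2 in controls in C57BL/6. The 10 h change was 1.13 (SE 0.27, adjusted p = 0.0339) and 0.95 (SE 0.19, adjusted p = 0.0191) in AKR/N, and −0.98 (SE 0.27, adjusted p = 0.0403) and −1.44 (SE 0.19, adjusted p = 0.00168) in C57BL/6. Neither AKR/N rise held without any 1 of its 4 arrays (1.03 to 1.23, adjusted p = 0.116 to 0.134 and 0.88 to 1.01, adjusted p = 0.0618 to 0.119), and in C57BL/6 the call on 1421924_at was lost likewise (−1.13 to −0.84, adjusted p = 0.101 to 0.222). With a pseudocount of 1 the AKR/N changes were 1.21, adjusted p = 0.125 and 1.09, adjusted p = 0.0577. With median centring 3 of the 4 falls at 10 h in C57BL/6 were not called, at −0.47, adjusted p = 0.102 on 1437052_s_at, −0.71, adjusted p = 0.0594 on 1455898_x_at and −1.0, adjusted p = 0.0569 on 1421924_at. The bright probe sets did not show the rise: in AKR/N at 10 h 1437052_s_at changed by −0.25 (SE 0.12, adjusted p = 0.295) and 1455898_x_at by −0.30 (SE 0.16, adjusted p = 0.327). The probe sets of Slc2a3 thus disagreed in direction at 10 h in AKR/N.

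At 24 h the dim probe sets were lower too. In AKR/N 1421924_at read 106 and 55.5 and changed by −0.85 (SE 0.27, adjusted p = 0.0399), and 1427770_a_at read 47.7 and 33.2 and changed by −0.61 (SE 0.19, adjusted p = 0.0423). Both AKR/N calls were lost without 24 h replicate 2 or either control (−0.95 to −0.47, adjusted p = 0.0871 to 0.371 and −0.63 to −0.43, adjusted p = 0.124 to 0.311). With median centring they were −0.85, adjusted p = 0.056 and −0.60, adjusted p = 0.0785, and a pseudocount of 1, no filter or the replicate block ended both calls too. In C57BL/6 the changes were −2.25 (SE 0.27, adjusted p = 4.78e-05) and −1.47 (SE 0.19, adjusted p = 9.56e-05), and these calls held. A comparison of the strains at 10 h, added after the values were seen, gave 2.39 (SE 0.27, adjusted p = 0.0075) on 1427770_a_at and 2.12 (SE 0.38, adjusted p = 0.0506) on 1421924_at, AKR/N minus C57BL/6, where 0.0786% of all probe sets were called higher and 0.0393% lower. The call on 1427770_a_at was lost without AKR/N 10 h replicate 2 or C57BL/6 10 h replicate 2 (2.25 to 2.32, adjusted p = 0.0797 to 0.0834). Its C57BL/6 10 h arrays, at 17.2 and 11.4, lay under the signal of 17.5 that served as the filter on low values, so the size of this difference rests on signals under that value. Over the mean of all 5 conditions every Slc2a3 probe set was higher in AKR/N than in C57BL/6, by 0.44, 0.69, 0.94 and 0.87, all called. That mean includes the heated groups, and no Slc2a3 probe set was called between the unheated strains. The control means of log2(signal + 16) in AKR/N and C57BL/6 were 7.40 and 7.46 on 1421924_at and 6.42 and 6.35 on 1427770_a_at. On the bright probe sets they were 12.62 and 12.40 on 1437052_s_at and 11.96 and 11.77 on 1455898_x_at. Over the mean of all 5 conditions, 5 member probe sets were called higher and 2 lower, where 12.4% of all probe sets were called higher and 10.1% lower.

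**Figure D3:**
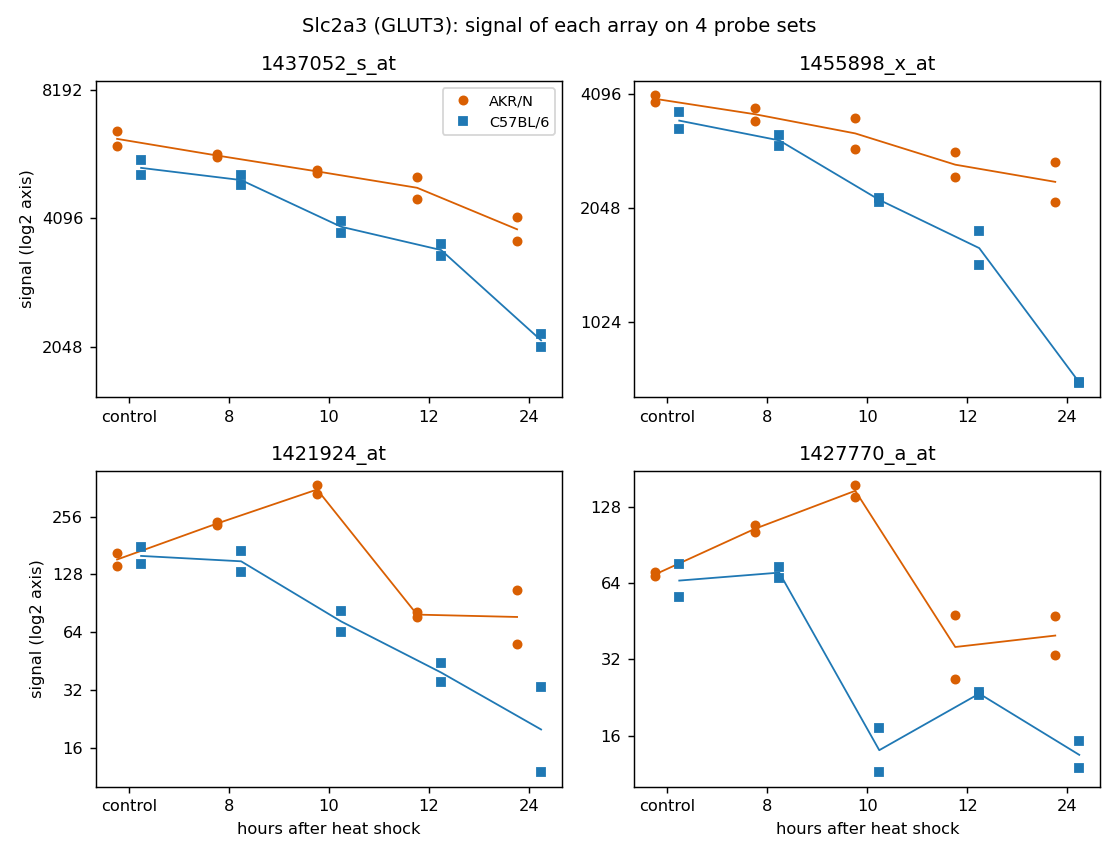
Signal of the 4 Slc2a3 probe sets (vertical, array intensity units) by group and time (horizontal), with points for single arrays and lines for group means of AKR/N and C57BL/6. The bright probe sets fall at 12 and 24 h, more in C57BL/6, and the dim probe sets peak at 10 h in AKR/N, where 1421924_at reached 336 and 374.

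Hk1, the hexokinase present in most cells, whose germ cell transcripts differ at the start of the protein, rose at 24 h in C57BL/6 on 1 of its 2 probe sets. That probe set, 1437974_a_at, read 4977 and 4771 in controls, 4337 and 4298 at 8 h, 5150.2 and 4489 at 10 h, 4906 and 5099 at 12 h and 3573 and 3769 at 24 h in AKR/N. In C57BL/6 it read 4079 and 4357 in controls, 4148 and 4019 at 8 h, 4415 and 5522 at 10 h, 5141 and 6062 at 12 h and 6008 and 5520.0 at 24 h. The 24 h arrays lay below the AKR/N controls and above the C57BL/6 controls. Its 24 h change was −0.41 (SE 0.14, adjusted p = 0.0572) in AKR/N, which was not called, and 0.45 (SE 0.14, adjusted p = 0.0249) in C57BL/6. The C57BL/6 call was lost without any 1 of its 4 arrays (0.39 to 0.51, adjusted p = 0.0545 to 0.146) and with median centring (0.33, adjusted p = 0.108). The difference between strains was −0.86 (SE 0.20, adjusted p = 0.0593) and did not pass. Averaged over the 4 times, no member's change differed between strains by limma's adjusted p, where 0% of all probe sets were called higher and 0.00357% lower. An unadjusted p under 0.05 was passed by 7 member probe sets, a count that shows no excess, since the share of all probe sets at that threshold was not taken.

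The other Hk1 probe set, 1420901_a_at, read 868 and 1268 in controls, 1633 and 1404 at 8 h, 2559 and 2409 at 10 h, 1203 and 1011 at 12 h and 1110.0 and 994 at 24 h in AKR/N. In C57BL/6 it read 1148 and 1474 in controls, 1427 and 1178 at 8 h, 1628 and 1872 at 10 h, 1541 and 1025 at 12 h and 1611 and 1753 at 24 h. The AKR/N 10 h arrays were the highest of the strain, as with the dim Slc2a3 probe sets. The 10 h change was 1.23 (SE 0.22, adjusted p = 0.00962) in AKR/N, lost without AKR/N 10 h replicate 1 or AKR/N control replicate 1 (0.96 to 1.19, adjusted p = 0.0666 to 0.106), and 0.42 (SE 0.22, adjusted p = 0.281) in C57BL/6. At 24 h it changed by 0.0013 (SE 0.22, adjusted p = 0.998) in AKR/N and by 0.37 (SE 0.22, adjusted p = 0.234) in C57BL/6, and neither was called. The 2 Hk1 probe sets correlated with r of only 0.22 over the 20 arrays.

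Averaged over the 4 times after heat shock, the calls were fewer in AKR/N. There, Pgk1 rose by 1.02 (SE 0.13, adjusted p = 0.00187) on 1417864_at and by 0.62 (SE 0.12, adjusted p = 0.0158) on 1438640_x_at, a call lost without AKR/N control replicate 1 or 2 (0.54 to 0.69, adjusted p = 0.112 to 0.12). In C57BL/6 Hk2 rose by 0.59 (SE 0.17, adjusted p = 0.033), lost without either 8 h array, 24 h replicate 1 or either control (0.41 to 0.76, adjusted p = 0.0501 to 0.331) and with median centring (0.54, adjusted p = 0.0781). Pgk2, a germ cell member, also rose over that mean in C57BL/6, by 0.33 (SE 0.092, adjusted p = 0.0281), a call that was lost with median centring (0.27, adjusted p = 0.18) and without C57BL/6 control replicate 1 or 2 (0.32 to 0.34, adjusted p = 0.173 to 0.181). Slc2a3 fell in C57BL/6 on all 4 probe sets, by 0.63, 1.06, 1.24 and 0.97. In AKR/N the same probe sets changed by −0.37, −0.43, 0.0051 and 0.033, none called. The controls of a strain enter all its comparisons, so these values are not independent of those at single times.

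The 4 somatic and 3 germ cell members were set against each other as a summary of each array. Each gene's log2 deviation from the control mean of its strain was averaged over its probe sets and then over the genes, and the germ cell mean was subtracted from the somatic mean. This difference was −0.065 ± 0.11 at 8 h, 0.10 ± 0.11 at 10 h, 0.28 ± 0.02 at 12 h and 0.47 ± 0.079 at 24 h in AKR/N (SD, n = 2), with a control SD of 0.25. It was 0.049 ± 0.092, 0.22 ± 0.21, 0.28 ± 0.022 and 0.75 ± 0.04 at these times in C57BL/6 (SD, n = 2), with a control SD of 0.038. The 24 h arrays of both strains lay above all their controls, but no test is given, since the members were chosen with results known. The 24 h value is a somatic mean of 0.51 less a germ cell mean of 0.045 in AKR/N, and of 1.06 less 0.31 in C57BL/6.

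The somatic genes did not move as one. At 24 h the gene means were, in AKR/N, 1.53 for Pgk1, 0.26 for Slc2a1, 0.57 for Hk2 and −0.30 for Ldha. In C57BL/6 they were 1.57, 1.66, 1.42 and −0.41. In AKR/N Pgk1 made up the largest part of the summary. In the germ cell group the range at 24 h was −0.15 (Ldhc) to 0.30 (Pgk2) in AKR/N and −0.011 (Ldhc) to 0.48 (Pgk2) in C57BL/6. The summary mixes unlike steps, since only Pgk1 with Pgk2 and Ldha with Ldhc share a step. Pgk1 lay above Pgk2 and Ldha below Ldhc at 24 h in both strains, so these pairs went opposite ways.

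**Figure D4:**
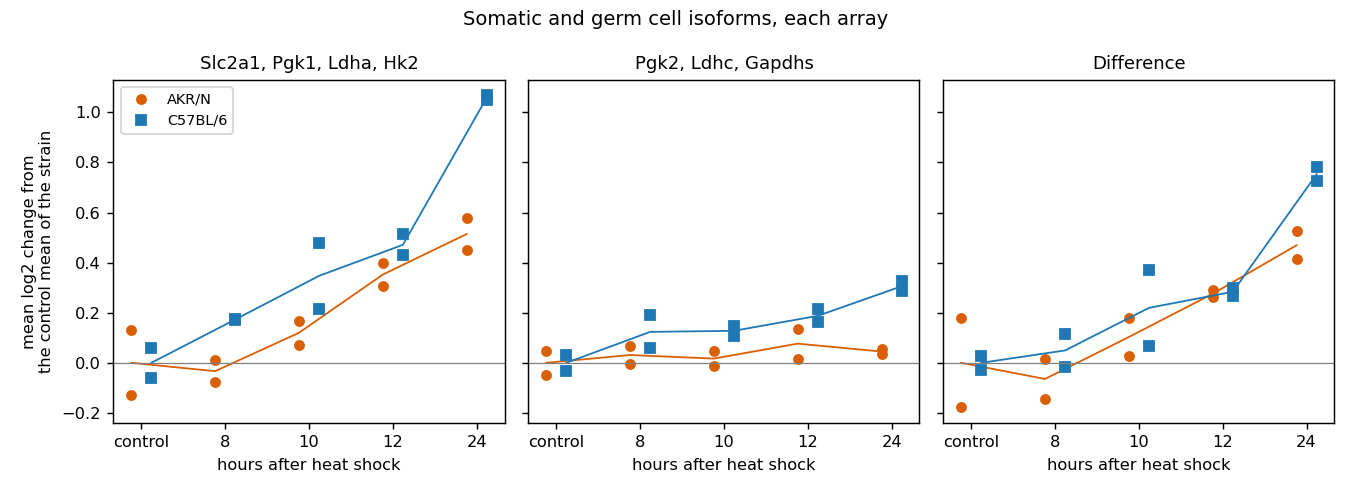
Mean log2 deviation from the strain's controls of the somatic members, the germ cell members and their difference (vertical), by group and time (horizontal), with points for the 2 arrays of a group in AKR/N and C57BL/6. The difference is highest at 24 h, 0.47 in AKR/N and 0.75 in C57BL/6.

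The promoters of the members were read to show how the somatic and germ cell forms differ in sequence. RefSeq lists 12 promoters on build GRCm38.p6 for 8 of the 9 genes; none was found for Slc2a3. The 250 bases before the start are shown for the 4 somatic and 3 germ cell members set against each other above, and where RefSeq lists 2 promoters the most upstream one is shown. Capitals mark each match of ACGTG, the core of the hypoxia response element, on either strand (CACGT). The windows are, for Slc2a1, chr4:119108495-119108744 (plus strand), for Pgk1, chrX:106186850-106187099 (plus strand), for Ldha, chr7:46845554-46845803 (plus strand), for Hk2, chr6:82774455-82774704 (minus strand), for Pgk2, chr17:40208610-40208859 (minus strand), for Ldhc, chr7:46861013-46861262 (plus strand), and for Gapdhs, chr7:30743682-30743931 (minus strand).
Slc2a1: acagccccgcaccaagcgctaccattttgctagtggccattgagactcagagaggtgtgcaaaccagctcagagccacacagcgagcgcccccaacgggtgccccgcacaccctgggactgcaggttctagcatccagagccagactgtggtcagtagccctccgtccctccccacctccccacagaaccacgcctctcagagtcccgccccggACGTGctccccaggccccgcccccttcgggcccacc
Pgk1: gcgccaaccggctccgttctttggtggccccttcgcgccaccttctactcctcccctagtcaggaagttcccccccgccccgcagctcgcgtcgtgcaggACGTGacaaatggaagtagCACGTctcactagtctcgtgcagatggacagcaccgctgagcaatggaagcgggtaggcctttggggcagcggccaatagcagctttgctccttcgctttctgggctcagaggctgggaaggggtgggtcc
Ldha: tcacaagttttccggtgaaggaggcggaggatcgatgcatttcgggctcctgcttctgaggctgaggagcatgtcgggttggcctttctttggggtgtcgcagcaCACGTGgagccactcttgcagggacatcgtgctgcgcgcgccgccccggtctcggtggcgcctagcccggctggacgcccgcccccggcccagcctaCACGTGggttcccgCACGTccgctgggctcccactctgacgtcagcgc
Hk2: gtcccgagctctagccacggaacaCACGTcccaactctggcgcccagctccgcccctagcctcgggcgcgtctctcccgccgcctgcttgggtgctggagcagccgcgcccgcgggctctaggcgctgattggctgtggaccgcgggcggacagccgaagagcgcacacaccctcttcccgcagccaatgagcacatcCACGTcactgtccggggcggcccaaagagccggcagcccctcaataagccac
Pgk2: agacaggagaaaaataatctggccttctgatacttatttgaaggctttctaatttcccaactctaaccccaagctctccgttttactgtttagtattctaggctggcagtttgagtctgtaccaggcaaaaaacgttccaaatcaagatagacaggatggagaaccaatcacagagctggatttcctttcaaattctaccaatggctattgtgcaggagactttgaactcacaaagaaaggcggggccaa
Ldhc: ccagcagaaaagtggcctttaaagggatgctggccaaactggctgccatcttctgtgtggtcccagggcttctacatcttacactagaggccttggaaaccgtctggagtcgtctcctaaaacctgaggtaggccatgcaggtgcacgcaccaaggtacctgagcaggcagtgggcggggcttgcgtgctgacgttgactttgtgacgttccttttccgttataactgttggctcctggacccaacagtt
Gapdhs: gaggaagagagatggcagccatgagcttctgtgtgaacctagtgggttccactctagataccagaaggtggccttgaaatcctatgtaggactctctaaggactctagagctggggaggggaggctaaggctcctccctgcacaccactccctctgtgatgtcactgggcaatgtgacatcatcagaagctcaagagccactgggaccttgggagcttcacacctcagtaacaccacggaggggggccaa
Each somatic gene holds ACGTG in a window, 4 of 4 genes and 4 of 5 promoters. It lies 36 bases before the start of Slc2a1, 131 and 150 before Pgk1, 52 and 226 before Hk2, and 34 to 145 before Ldha, whose 5 matches include overlapping pairs on both strands. Of the germ cell genes, 0 of 3 hold ACGTG in 250 bases and 1 of 3 in the 300 bases that reach 50 past the start. Of all 32817 promoters in the table, 16.6% hold it in 250 bases and 19.6% in 300. The GC box GGGCGG was in 4 of 4 somatic genes and 1 of 3 germ cell genes, against 32.7% of all promoters. Over all promoters listed, the 5 of somatic genes were 54.4 to 69.6% G and C and the 5 of germ cell genes 42.0 to 59.2%, so the ranges overlap. Counts of the pair CG in 250 bases did not overlap, at 9 to 25 in somatic and 0 to 8 in germ cell promoters. The median over all promoters was 6. ACGTG and GGGCGG each hold a CG, and their shares were not set against promoters of like CG count. TGACG, part of the cAMP response element TGACGTCA (reverse CGTCA), was in 2 of 4 somatic and 1 of 3 germ cell genes, against 17.7% of all promoters. It lies 61 and 47 bases before the start of Ldhc, 50 before Hk2, 12 and 9 before the upstream start of Ldha, where both matches form 1 TGACGTCA, and 143 before the other Ldha start. The heat shock element core GAANNTTC was in none of the member promoters and in 6.69% of all. Whether any of these motifs bears on the changes of the genes was not tested.

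Germ cell forms of other energy enzymes and their somatic partners were read from 2 lists of 10 genes, of which 8 and 8 were measured. The measured genes do not form 8 pairs. Cox7b and Gyk, the partners of Cox7b2 and Gk2, were not measured, and neither was Acot10, the germ cell form beside Acot9. At 24 h in AKR/N none of the germ cell forms rose, 3 fell and 5 did not pass, with a median log2 change of −0.34, against 0.016 over all probe sets tested. At 24 h in C57BL/6 5 fell and 3 did not pass, with a median of −0.70, against 0.085. Their somatic partners rose, 8 of 8 in each strain, with medians of 0.75 in AKR/N and 0.81 in C57BL/6. Of all probe sets at 24 h, 10.6% were called higher and 7.6% lower in AKR/N, and 17.9% higher and 13.1% lower in C57BL/6. Without 1 array, 3 to 7 partners were called in AKR/N, the fewest without AKR/N 24 h replicate 2, and 6 to 7 in C57BL/6.

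Among the germ cell forms, Cox7b2, a testis subunit of cytochrome c oxidase, fell by 0.74 (SE 0.14, adjusted p = 0.00298) in AKR/N and by 1.56 (SE 0.14, adjusted p = 6.87e-06) in C57BL/6. Cox8c, another such subunit, fell by 1.01 (SE 0.13, adjusted p = 0.000654) in AKR/N and by 1.61 (SE 0.13, adjusted p = 5.38e-06) in C57BL/6 on its brightest probe set, but its other probe set changed by 0.34 in C57BL/6. Cyct, the testis cytochrome c, changed by −0.38 (SE 0.15, adjusted p = 0.0903) in AKR/N, which was not called, and fell by 1.60 (SE 0.15, adjusted p = 9.38e-06) in C57BL/6. Among the somatic partners, Cycs, the somatic cytochrome c, rose by 0.80 (SE 0.14, adjusted p = 0.00237) in AKR/N and 0.83 (SE 0.14, adjusted p = 0.000529) in C57BL/6. Slc25a5, an ADP/ATP carrier of the mitochondrial inner membrane, rose by 0.96 (SE 0.13, adjusted p = 0.000675) in AKR/N and 1.24 (SE 0.13, adjusted p = 2.12e-05) in C57BL/6. Vdac1, the channel of the outer membrane, rose by 0.88 (SE 0.18, adjusted p = 0.00536) in AKR/N, lost without AKR/N 24 h replicate 2 (0.73, adjusted p = 0.0761), and by 1.68 (SE 0.18, adjusted p = 2.42e-05) in C57BL/6. The other 4 Vdac1 probe sets changed by 0.21 to 0.89 in AKR/N and by 0.10 to 1.77 in C57BL/6. Cox8a rose by 0.70 (SE 0.17, adjusted p = 0.0113) in AKR/N and 0.52 (SE 0.17, adjusted p = 0.0287) in C57BL/6. The AKR/N call on Cox8a was lost without AKR/N 24 h replicate 1, AKR/N 24 h replicate 2 or AKR/N control replicate 2 (0.61 to 0.79, adjusted p = 0.0516 to 0.0727) and the C57BL/6 call was lost without any 1 of its 4 arrays (0.43 to 0.60, adjusted p = 0.0552 to 0.168). So some germ cell forms of the other enzymes fell, whereas Pgk2 rose in C57BL/6 and Ldhc was not called.

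**Figure D5:**
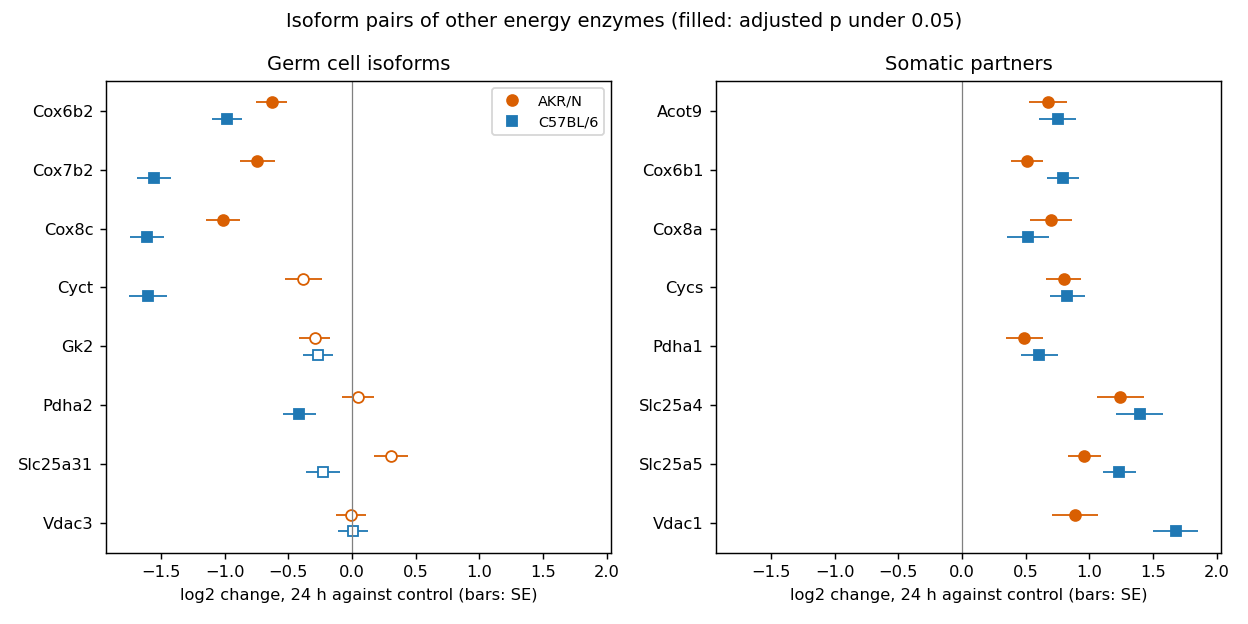
Log2 change at 24 h against controls (horizontal, bars are the SE) of the measured germ cell isoforms and somatic partners of other energy enzymes, in AKR/N and C57BL/6, filled where the adjusted p is under 0.05. Genes run alphabetically in each panel and are not paired by row; all partner points lie above 0, at 0.75 and 0.81 in the median.

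The rest of glycolysis was mixed. Of 20 measured genes of a list of 26, 3 rose, 4 fell and 13 did not pass at 24 h in AKR/N, and 7 rose, 4 fell and 9 did not pass in C57BL/6, with medians of −0.04 and 0.082. The shares of all probe sets called at 24 h are those given with the isoforms of other energy enzymes. Pfkp, a phosphofructokinase, fell by 1.06 (SE 0.15, adjusted p = 0.00075) in AKR/N and by 1.38 (SE 0.15, adjusted p = 2.32e-05) in C57BL/6. Aldoa, the muscle aldolase, changed by 0.35 (SE 0.14, adjusted p = 0.097) in AKR/N, which was not called, and rose by 1.07 (SE 0.14, adjusted p = 8.86e-05) in C57BL/6. Its other 4 probe sets changed by −0.24 to 0.22 in AKR/N and by 0.45 to 0.85 in C57BL/6. Aldoart1, a germ cell aldolase, rose by 0.61 (SE 0.14, adjusted p = 0.00902) in AKR/N, lost without AKR/N 24 h replicate 2 or AKR/N control replicate 1 (0.51 to 0.53, adjusted p = 0.0745 to 0.0981), and by 0.69 (SE 0.14, adjusted p = 0.00188) in C57BL/6. Eno3, the muscle enolase, changed by −0.48 (SE 0.16, adjusted p = 0.0515) in AKR/N, which was not called, and fell by 0.93 (SE 0.16, adjusted p = 0.000671) in C57BL/6. So Aldoart1 is a germ cell gene that rose and Pfkp a general one that fell.

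Glucose and lactate transporters were measured for 12 of 12 genes; 3 rose and 2 fell at 24 h in AKR/N, and 3 rose and 3 fell in C57BL/6. At 24 h 10.6% of all probe sets were called higher and 7.6% lower in AKR/N, and 17.9% of all probe sets were called higher and 13.1% lower in C57BL/6, the shares beside which this and the other lists stand. Slc16a1, the monocarboxylate carrier MCT1 that moves lactate, rose by 0.60 (SE 0.14, adjusted p = 0.0113) in AKR/N, lost without AKR/N 24 h replicate 2, AKR/N control replicate 1 or AKR/N control replicate 2 (0.52 to 0.61, adjusted p = 0.0502 to 0.114), and by 1.64 (SE 0.14, adjusted p = 6.87e-06) in C57BL/6. The difference between strains was −1.04 (SE 0.20, adjusted p = 0.0349), lost without any 1 of its 8 arrays (−1.13 to −0.95, adjusted p = 0.067 to 0.147). Emb, a partner protein of such carriers, rose by 1.20 (SE 0.23, adjusted p = 0.00394) in AKR/N, lost without AKR/N 24 h replicate 2 (1.10, adjusted p = 0.054), and by 1.31 (SE 0.23, adjusted p = 0.000786) in C57BL/6. Slc2a8, the glucose transporter GLUT8, fell by 0.83 (SE 0.23, adjusted p = 0.0261) in AKR/N, lost without AKR/N 24 h replicate 2 or AKR/N control replicate 2 (−0.63 to −0.59, adjusted p = 0.168 to 0.238), and by 1.45 (SE 0.23, adjusted p = 0.000401) in C57BL/6. So GLUT8 fell with Slc2a3 and MCT1 rose with Slc2a1.

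Of 12 measured switch genes, which set the flux into glycolysis or the mitochondrion, 4 rose and 2 fell in AKR/N, and 4 rose and 1 fell in C57BL/6 at 24 h. Pfkfb3, which makes the activator of phosphofructokinase, rose by 0.75 (SE 0.15, adjusted p = 0.00402) in AKR/N, lost without AKR/N 24 h replicate 2 (0.68, adjusted p = 0.0555), and by 0.76 (SE 0.15, adjusted p = 0.00132) in C57BL/6, though its other probe set changed by −0.04 in AKR/N. Pdk3, a kinase that turns off pyruvate dehydrogenase, rose by 0.52 (SE 0.12, adjusted p = 0.0115) in AKR/N, lost without AKR/N 24 h replicate 2, AKR/N control replicate 1 or AKR/N control replicate 2 (0.46 to 0.52, adjusted p = 0.0512 to 0.107), and by 0.67 (SE 0.12, adjusted p = 0.00103) in C57BL/6. Pfkfb2, another enzyme of that activator, rose by 0.61 (SE 0.18, adjusted p = 0.0296) in AKR/N, lost without AKR/N 24 h replicate 2 or AKR/N control replicate 2 (0.35 to 0.48, adjusted p = 0.168 to 0.307), and by 0.78 (SE 0.18, adjusted p = 0.00414) in C57BL/6, where its other 3 probe sets changed by −0.63 to 0.97.

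Of 20 measured hypoxia response genes outside glycolysis, 7 rose and 1 fell in each strain at 24 h, beside 10.6% and 17.9% of all probe sets called higher in AKR/N and C57BL/6, with medians of 0.24 and 0.29. Hif1a, the oxygen-sensitive factor of that response, rose by 1.09 (SE 0.24, adjusted p = 0.00762) in AKR/N, lost without AKR/N 24 h replicate 2 or AKR/N control replicate 2 (0.81 to 0.99, adjusted p = 0.0739 to 0.0801), and by 2.05 (SE 0.24, adjusted p = 4.04e-05) in C57BL/6. Ero1a, an oxidase of the endoplasmic reticulum, rose by 0.94 (SE 0.14, adjusted p = 0.00124) in AKR/N and 1.15 (SE 0.14, adjusted p = 7.08e-05) in C57BL/6. P4ha1, a collagen prolyl hydroxylase, rose by 0.72 (SE 0.18, adjusted p = 0.0138) in AKR/N, lost without AKR/N 24 h replicate 2 or AKR/N control replicate 1 (0.53 to 0.70, adjusted p = 0.0981 to 0.125), and by 1.37 (SE 0.18, adjusted p = 8.74e-05) in C57BL/6. Ndrg1, a stress response protein, rose by 0.90 (SE 0.17, adjusted p = 0.00377) in AKR/N, lost without AKR/N 24 h replicate 2 (0.84, adjusted p = 0.0502), and by 1.12 (SE 0.17, adjusted p = 0.000279) in C57BL/6. The other 2 Hif1a probe sets changed less than the one named, by 0.621 to 0.794 in AKR/N and 0.223 to 1.503 in C57BL/6. The other P4ha1 probe set changed by 1.09 in AKR/N and 0.59 in C57BL/6. The other 4 of Ndrg1 changed by 0.34 to 0.72 in AKR/N and 0.10 to 0.77 in C57BL/6. Bnip3, a mitophagy receptor, rose by 0.90 (SE 0.14, adjusted p = 0.0016) in AKR/N and 0.67 (SE 0.14, adjusted p = 0.00311) in C57BL/6. In each strain 12 of the 20 did not pass. These counts in AKR/N rest in part on AKR/N 24 h replicate 2, without which 3 hypoxia genes and 1 switch gene rose, and 1 gene of the rest of glycolysis and none of the 12 transporters passed.

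Marker transcripts of several testis cell types changed beside these results, and the part of cell types in the results was not tested. Of 8 pachytene spermatocyte markers, none rose, 5 fell and 3 did not pass at 24 h in AKR/N, and 6 fell and 2 did not pass in C57BL/6. Their summed signal was 9562 to 10203 at 24 h and 13584 to 14336 in controls in AKR/N. It was 7227 to 7801 at 24 h and 13849.6 to 14165 in controls in C57BL/6. Ovol2, a transcription factor of the germ line, fell by 1.0 (SE 0.17, adjusted p = 0.00233) in AKR/N and by 1.62 (SE 0.17, adjusted p = 2.28e-05) in C57BL/6. Hspa2, the chaperone of spermatocytes, fell by 0.84 (SE 0.18, adjusted p = 0.00717) in AKR/N, lost without AKR/N 24 h replicate 2 (−0.74, adjusted p = 0.0818), and by 1.11 (SE 0.18, adjusted p = 0.000443) in C57BL/6. Piwil1, a protein of the piRNA machinery, changed by −0.52 (SE 0.17, adjusted p = 0.0521) in AKR/N, which was not called, and fell by 2.01 (SE 0.17, adjusted p = 6.87e-06) in C57BL/6.

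Of 7 measured Sertoli cell markers, 3 rose in AKR/N and 5 in C57BL/6 at 24 h, and none fell. Their summed signal was 8789 to 8817 at 24 h and 6053 to 6451 in controls in AKR/N. It was 9201 to 9713 at 24 h and 5379 to 5573 in controls in C57BL/6. Most of each sum was Clu, at 6401 and 6596 at 24 h and 4496 and 4415 in controls in AKR/N. In C57BL/6 Clu read 7365 and 7216 at 24 h and 3843 and 4144 in controls. Called markers of macrophages, spermatogonia and myoid cells, given below, rose in both strains too, so a rise at 24 h was not particular to Sertoli markers. Clu, the secreted chaperone clusterin, rose by 0.54 (SE 0.11, adjusted p = 0.00488) in AKR/N, lost without AKR/N 24 h replicate 2 (0.52, adjusted p = 0.055), and by 0.87 (SE 0.11, adjusted p = 6.99e-05) in C57BL/6. Sox9, the Sertoli cell transcription factor, changed by 0.48 (SE 0.16, adjusted p = 0.0525) in AKR/N, which was not called, and rose by 0.89 (SE 0.16, adjusted p = 0.000893) in C57BL/6. The other 2 Sox9 probe sets changed by −0.11 to 0.69 in AKR/N and by only 0.029 to 0.31 in C57BL/6. Of 8 round spermatid markers 1 rose and none fell in AKR/N, and 2 rose and 2 fell in C57BL/6. The spermatid kinases Tssk1 and Tssk2 changed by 0.15 and 0.15 in AKR/N, neither called, and rose by 0.53 and 0.82 in C57BL/6. Of 8 elongating spermatid markers none was called in AKR/N and 1 rose in C57BL/6. That marker was Akap4, of the sperm tail sheath, at 0.36 (SE 0.13, adjusted p = 0.0736) in AKR/N and 0.50 (SE 0.13, adjusted p = 0.0103) in C57BL/6, the second lost without C57BL/6 24 h replicate 2 or C57BL/6 control replicate 1 (0.45 to 0.47, adjusted p = 0.0628 to 0.0684). Elongating spermatid signal summed to 70275 to 71439 at 24 h and 71973 to 73233 in controls in AKR/N, and to 78368 to 79759.6 at 24 h and 65753 to 70023 in controls in C57BL/6. Of 6 macrophage and leukocyte markers 3 rose and none fell in each strain, with sums of 988 to 1109 at 24 h and 607 to 692 in controls in AKR/N. In C57BL/6 these sums were 751 to 783 at 24 h and 434 to 439 in controls. Of 6 Leydig cell markers 2 fell and none rose in AKR/N, and 2 rose and 2 fell in C57BL/6.

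Star, the carrier of cholesterol into mitochondria for steroid synthesis, changed by −0.45 (SE 0.22, adjusted p = 0.17) in AKR/N, which was not called, and rose by 2.87 (SE 0.22, adjusted p = 3.78e-06) in C57BL/6. That difference, AKR/N minus C57BL/6, was −3.33 (SE 0.31, adjusted p = 0.000608) and held without any 1 array. The unheated level of Star was higher in AKR/N than in C57BL/6, by 1.71 (SE 0.22, adjusted p = 0.000307), and its other 2 probe sets changed by 0.20 to 1.01 at 24 h in AKR/N and 2.09 to 2.43 in C57BL/6, so they disagreed with the first in sign in AKR/N. Cyp11a1, the first enzyme of steroid synthesis, changed by 0.23 (SE 0.16, adjusted p = 0.339) in AKR/N and −0.069 (SE 0.16, adjusted p = 0.791) in C57BL/6, with neither called. Its other 2 probe sets changed by −0.83 to 0.093 in AKR/N and by −0.086 to 0.29 in C57BL/6. Of 8 spermatogonia markers 2 rose in AKR/N and 1 in C57BL/6, of 5 peritubular myoid markers 2 and 1, of 5 endothelial markers 0 and 2, and of 2 measured red blood cell genes 0 and 0, and none fell. Stra8, a gene of germ cells that enter meiosis, rose by 0.81 (SE 0.15, adjusted p = 0.00313) in AKR/N, lost without AKR/N 24 h replicate 2 (0.61, adjusted p = 0.0554), and by 1.43 (SE 0.15, adjusted p = 1.92e-05) in C57BL/6, and Sohlh1, a factor of spermatogonia, changed by −0.34 and 0.073, neither called. Tagln, of smooth muscle, rose by 1.06 (SE 0.23, adjusted p = 0.00675) in AKR/N, lost without AKR/N 24 h replicate 2 or AKR/N control replicate 2 (0.95 to 1.01, adjusted p = 0.0501 to 0.0672), and by 0.99 (SE 0.23, adjusted p = 0.0044) in C57BL/6. Acta2, the smooth muscle actin, rose by 0.46 (SE 0.14, adjusted p = 0.0367) in AKR/N, lost without AKR/N 24 h replicate 2, AKR/N control replicate 1 or AKR/N control replicate 2 (0.31 to 0.54, adjusted p = 0.0655 to 0.303), where its other probe set changed by −0.45, and changed by 0.29 (SE 0.14, adjusted p = 0.134) in C57BL/6. Vwf, of endothelium, changed by 0.33 (SE 0.22, adjusted p = 0.326) in AKR/N, which was not called, and rose by 1.04 (SE 0.22, adjusted p = 0.00272) in C57BL/6. Cd14, of macrophages, changed by 0.39 and 0.51, neither called. Without AKR/N 24 h replicate 2 the AKR/N counts were 2 pachytene markers that fell, 1 Sertoli marker that rose and none of the macrophage, spermatogonia or myoid markers.

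Genes whose course over the 20 arrays most resembled a member's were named by Pearson's r on the probe set with the highest mean, as a description of arrays that share their groups. For Pgk1 these were Vim (r = 0.94), a filament protein of Sertoli and other somatic cells, and 4933402E13Rik (r = 0.93). For Slc2a1 they were Acot13 (r = 0.93) and 1500009L16Rik (r = 0.92), and for Hk2 Eps8 (r = 0.95), an actin regulator, and Acsl5 (r = 0.94), an acyl-CoA synthetase. For Ldha they were Tbccd1 and 1700010I14Rik (r = 0.91 each). For Pgk2 they were Cabs1 (r = 0.97), a protein of elongating spermatids, and Txndc2 (r = 0.95), a sperm thioredoxin, for Ldhc Spa17 (r = 0.94), a sperm surface protein, and Fam229b (r = 0.90), and for Gapdhs Trim17 (r = 0.95) and Usp12 (r = 0.94).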

How the data were processed

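The samples were 20 arrays of whole testis RNA, 10 of AKR/N and 10 of C57BL/6, in 10 groups of 2. The authors deposited 1 signal per probe set and array, here given the unit intensity, and every array has the same trimmed mean (125.001). The software and scaling behind them are not given in the sources, and RNA was extracted with Trizol and labelled by one-cycle cDNA synthesis, per the labels' protocols. From these signals log2(signal + 16) was taken. Of 45101 probe sets, 64 controls were left out, 34945 had 1 gene in the chip annotation and 28000 passed the filter (highest group mean at or above the 40th percentile, a signal of 17.5). Probe sets of all 20 arrays were fitted with 1 mean for each group in limma 3.58.1 in R 4.3.3 (prior degrees of freedom 3.84, residual 10). Data were read with the R package data.table (1.17.8), and plots were drawn with matplotlib 3.10.9. The fit was also run on simulated data with independent normal noise. Such data hold no shifts shared by an array, so that run does not bear on the calls given here. That the scale is linear was judged from signals that are all positive with a long upper tail. P-values were adjusted by Benjamini-Hochberg over the 28000. The number of arrays limits the precision.

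The members, the lists and most tests were chosen with earlier results of these data known. All member probe sets are named. Other genes were named by rule: up to 3 per list with the smallest adjusted p in each strain's mean heat comparison among those called, on the probe set with the highest mean, and the 2 genes most like each of the 7 somatic and germ cell members by Pearson's r. Lists covered other glycolysis, transport, switches, germ cell and somatic isoforms of other energy enzymes, and hypoxia response. Marker lists covered spermatogonia, pachytene spermatocytes, round and elongating spermatids, Sertoli, Leydig, peritubular myoid, endothelial and red blood cells, and macrophages. Alternatives were pseudocounts of 1 and 64, median centring, quantile normalization, no filter, 1 probe set per gene, a replicate block and leaving out each array. Promoter sequences are those of RefSeq (GRCm38.p6), matched by symbol for 8 of 9 members. The comparisons of strains at 8, 10 and 12 h were added after the values were seen.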

Additional observations from a re-analysis of the deposited data

Results flagged for a closer look

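Differences between the strains in the change after heat shock passed limma's test on 4 member probe sets and 4 other named genes, each AKR/N minus C57BL/6. The 24 h change of Slc2a1 differed by −1.27 on 1434773_a_at and by −1.32 on 1426599_a_at, where the rise was smaller in AKR/N or not called there. The first call was lost without any 1 of its 8 arrays (−1.41 to −1.12, adjusted p = 0.0635 to 0.125) and the second was lost without any 1 array other than AKR/N 24 h replicate 2 or AKR/N control replicate 2 (−1.44 to −1.11, adjusted p = 0.0649 to 0.122), and with median centring both were lost (adjusted p = 0.0769 and 0.0513). The 24 h change of Slc2a3 differed by 1.54 on 1455898_x_at, which is less of a fall in AKR/N, and this call was lost without any 1 array other than AKR/N 24 h replicate 2, AKR/N control replicate 2 or C57BL/6 24 h replicate 2 (1.37 to 1.62, adjusted p = 0.0629 to 0.0895). The 10 h change of Slc2a3 differed by 2.39 on 1427770_a_at, a probe set that was higher than control in both AKR/N arrays at that time and lower in both C57BL/6 arrays, whose signals of 17.2 and 11.4 lay under the filter value of 17.5. This call was lost without AKR/N 10 h replicate 2 or C57BL/6 10 h replicate 2 (2.25 to 2.32, adjusted p = 0.0797 to 0.0834), and the test at 10 h was added after the values were seen. Among the other named genes, the 24 h change differed by −1.04 (SE 0.20, adjusted p = 0.0349) for Slc16a1, lost without any 1 of its 8 arrays (−1.13 to −0.95, adjusted p = 0.067 to 0.147), and by −3.33 (SE 0.31, adjusted p = 0.000608) for Star. It differed by 1.22 (SE 0.21, adjusted p = 0.028) for Cyct, lost without any 1 array other than AKR/N control replicate 2 (1.17 to 1.27, adjusted p = 0.0615 to 0.109), and by 1.48 (SE 0.25, adjusted p = 0.0264) for Piwil1, lost without any 1 array other than C57BL/6 24 h replicate 2 (1.30 to 1.56, adjusted p = 0.0522 to 0.109).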

How the results depend on the processing

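Counts here are of member genes called on the probe set with the highest mean, and the cause of a change was not tested. No result changed sign among called values under any alternative. With arrays centred on their median, the genes called were 3 for the mean of the 4 times in C57BL/6 (main value 5), 0 at 10 h in AKR/N (1), 1 at 10 h in C57BL/6 (2), 5 at 24 h in C57BL/6 (8), 0 between unheated strains (1) and 0 for the strain difference at 24 h (1). With a pseudocount of 64 they were 2 for the mean in AKR/N (1), 2 at 12 h (1) and 5 at 24 h (3) in AKR/N, 5 at 12 h in C57BL/6 (3) and 3 for the strain difference at 24 h. That difference gave 2 with quantile normalization and 2 with 1 probe set per gene, which also gave 2 for the mean in AKR/N. At 10 h in C57BL/6 the count was 1 with no filter and 1 with the replicate number as a block. The replicate numbers did not pair the samples: over 45 pairs of groups the deviations correlated with r of −0.24 to 0.25, and 3 pairs exceeded 0.1. Without 1 array, the genes called were 1 in AKR/N and 2 to 5 in C57BL/6 for the mean of the 4 times. At single times they were 0 at 8 h in both strains, 0 at 10 h, 1 at 12 h and 2 at 24 h in AKR/N, and 0 to 1, 1 to 2 and 4 to 6 at these times in C57BL/6. For 24 h against earlier times they were 1 to 4 in AKR/N and 4 to 5 in C57BL/6, between strains 0 to 1 in controls and 4 over all conditions, and 0 for each strain difference in heat change. Of 91 calls of member probe sets, 43 held without any 1 array and 48 did not.

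The somatic minus germ cell difference was 0.0064 at 8 h in AKR/N from the brightest probe set of each gene alone, and −0.041 at 10 h in AKR/N with quantile normalization. In C57BL/6 it was 0.15 at 8 h with quantile normalization and −0.0065 with a pseudocount of 64, at 12 h 0.38 with a pseudocount of 1, 0.13 with 64 and 0.23 with the probe set with the highest mean, and at 24 h 0.79 with quantile normalization, 0.91 with a pseudocount of 1 and 0.48 with 64. Without 1 array it ranged in AKR/N from −0.24 to 0.11 at 8 h, −0.074 to 0.28 at 10 h, 0.098 to 0.45 at 12 h and 0.29 to 0.65 at 24 h. In C57BL/6 it ranged from −0.016 to 0.11, 0.067 to 0.37, 0.26 to 0.31 and 0.73 to 0.78 at these times. The count of germ cell genes with ACGTG was 0 in the 250 bases before the start and 1 in 300.

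Over all probe sets, the number called for the mean in AKR/N was 1093, and 644 with median centring and 1879 with a pseudocount of 64. In AKR/N at 8 h it was 34 (95 with a pseudocount of 64, 20 with no filter), at 10 h 1068 (652 with median centring, 1707 with a pseudocount of 64) and at 12 h 1466 (966 and 2417). In C57BL/6 at 10 h it was 2015 and 1238 with median centring. For the strain difference at 24 h it was 217 (59 with median centring, 126 and 903 with pseudocounts of 1 and 64), and at 10 h 33 (5, 19 and 185, 13 with no filter and 12 with the block). For the strain difference over the mean it was 1 (5 with quantile normalization, 2 and 106 with pseudocounts of 1 and 64), at 8 h 0 (2 and 1 with these pseudocounts) and at 12 h 0 (1 with a pseudocount of 64). Median centring moved the share of calls that were higher to 42.6% from 53.1% for the mean in C57BL/6, to 32.8% from 52.0% at 12 h, to 44.3% from 57.8% at 24 h and to 44.5% from 60.7% for 24 h against earlier times. It moved that share to 33.8% from 45.6% between unheated strains and to 74.6% from 59.0% for the strain difference at 24 h. It moved the median change of all probe sets by −0.13 at 12 h and −0.12 at 24 h in C57BL/6, 0.10 at 8 h in AKR/N, 0.13 for the strain difference at 24 h and 0.12 for that at 12 h. Dim probe sets, such as those of Slc2a3 at signals under 100, are limited by background. Leaving out 1 array lowered the number of all probe sets called at each single time and for the strain difference at 24 h.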
